A study of Mus musculus with 7 samples.

Results

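In precision-cut liver slices (PCLS), 10 genes of bile acid synthesis and hepatobiliary transport were examined, chosen by name from 55487 genes in the count table: *Cyp7a1*, *Cyp8b1*, *Cyp27a1*, *Slc27a5*, *Baat*, *Slc10a1*, *Slco1b2*, *Abcb11*, *Abcb4* and *Abcc2*. All 10 were found in the table by their Ensembl identifier in GENCODE for GRCm38. The slices, 250 µm thick and 3 mm wide, came from livers of healthy male Balb/c mice, and the labels give no age for the single animals. They were kept in supplemented Williams' Medium E for 3 days either without valproic acid (CTR, 3 libraries) or with valproic acid sodium salt, an inhibitor of class I histone deacetylases, at 2.5 mM (VPA, 4 libraries). A slice holds all cell types of 1 small disc of liver lobe, so that a lower level can mean fewer hepatocytes or less RNA in each, which cannot be told apart here. The titles number the slice cultures 71 to 74, without saying what a number stands for. The numbers 71, 72 and 74 occur in both groups, and 73 occurs in the VPA group alone (VPA replicate 1).

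Bile acids are made from cholesterol in hepatocytes. In the classic route *Cyp7a1* acts at the start and sets the rate, and in the acidic route *Cyp27a1* acts at the start, while *Cyp8b1* directs the product towards cholic acid. The products are joined to taurine or glycine, exported into the canaliculus by ATP-driven pumps, and taken up again from portal blood by carriers in the sinusoidal membrane. This set of genes is typical of mature hepatocytes, and its loss is a known feature of hepatocytes kept in culture.

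Sequencing started from the poly(A) end of each RNA (a 3′ library), so a gene can be counted only near the end of its transcript. For this reason the last 30 bases of the annotated transcripts are given for the transporters of the canaliculus and for 3 genes whose annotated ends lack both common polyadenylation signals. Capitals mark the signal nearest to the end, AATAAA or, where that is absent, ATTAAA, searched on the transcript strand alone.
Abcc2: aaataaaactatttatttaAATAAAcatcc
Abcb4: taaAATAAAttcaaatcgtttttcacttta
Abcb11: gttacATTAAAatctagtaaaacatagtag
Cyp7a1: taccatttcaaaaatcagtttcttcagagt
Cyp8b1: actagatataaaagcaagggattacgttga
Slc10a1: tacaactggtagttctaacttaccaaacaa

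These sequences are those of the GENCODE M21 transcripts on GRCm38, the reference of another mouse strain, and 1 transcript was taken for each gene. The windows lie at chr19:43840711-43840740 on the + strand for *Abcc2*, chr5:8959197-8959226 on the + strand for *Abcb4* and chr2:69238289-69238318 on the − strand for *Abcb11*. For *Cyp7a1*, *Cyp8b1* and *Slc10a1* they lie on the − strand at chr4:6265612-6265641, chr9:121914356-121914385 and chr12:80953183-80953212. Either signal was present in 7 of the 10 genes, against 62.2% of 21830 protein-coding genes with a complete transcript end. *Abcb11*, which had no count in any library, has the signal, and *Cyp8b1*, which was counted in 6 libraries, does not. Whether these signals bear on the counts was not tested.

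The libraries held 1743675 to 4773750 counts on genes in the CTR group and 1400887 to 3102450 in the VPA group. Values are given as CPM, the counts scaled to a common library size with TMM normalization, which are not divided by gene length because a 3′ library gives reads at the end of each transcript only. A count of 0 allows up to 3 counts, or 0.591 to 2.41 CPM, and this covers counting error only. A 0 in the table did not always mean a low level. Among 3200 genes with a median of at least 50 CPM, 131 were listed at 0 in at least 1 library, among them *Polr2e*, a subunit of RNA polymerase II, with 0 counts in VPA replicate 1 and 161 to 785 in the other 6 libraries. *Srsf2*, a splicing factor, was listed at 0 in VPA replicates 1 and 4 and had 127 to 678 counts elsewhere. Both were chosen after their values were seen. Such zeros affected 2 to 13 of these genes in the CTR libraries and 19 to 67 in the VPA libraries, with the most in VPA replicate 1. Libraries at 0 are therefore described as listed at 0, and no fold change is given against a group at 0 throughout. The fitted fold changes of *Cyp8b1*, *Slc27a5*, *Acox2*, *Cyp2c70*, *Slc27a2*, *Abcc3* and *Nr1h4* rest in part on libraries listed at 0. So do those of other genes behind the counts and medians of the gene lists below. Among these are *Nr5a2*, *Nr1i2*, *Nr1h3* and *Ppara* of the regulators, *Slc47a1* of the canalicular genes, *Des*, *Pdgfrb* and *Hand2* of the stellate cell markers, and *Stab2*, *Lyve1*, *Cdh5* and *Stab1* of the endothelial markers. Whether such zeros take part in a result was not tested.

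**Figure D1:**
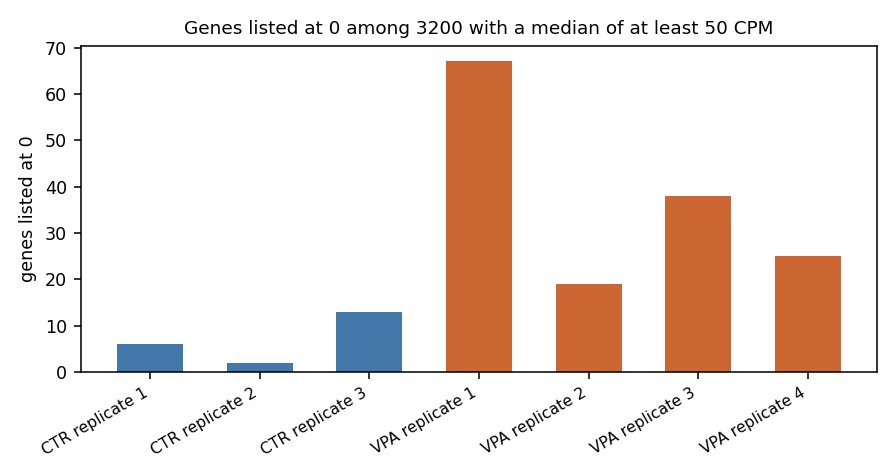
The bars give, for each of the 7 libraries, the number of genes listed at 0 among the 3200 genes with a median of at least 50 CPM over all libraries (CTR blue, VPA orange). Each VPA library had more such zeros (19 to 67) than each CTR library (2 to 13).

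With VPA, no difference was detected in edgeR's quasi-likelihood test, which covered 4 of the 10 genes and gave no result for the other 6. Only *Cyp27a1*, *Slco1b2*, *Abcb4* and *Abcc2* had a count in every library, and these 4 alone were kept by the low-count filter of edgeR. Of these, 0 had an adjusted p under 0.05 and 0 had an unadjusted p under 0.05. Over all 10876 genes tested the shares were 0.00919% and 8.28%, the former being 1 gene, *Creb3l3*, named here after its value was seen. Split by direction, an unadjusted p under 0.05 was found with a higher level in 3.65% and with a lower level in 4.62% of all genes. DESeq2 gave an adjusted p to 7 of the 10 genes and called 0 of them, against 1.04% of all genes it could adjust. Without the filter edgeR took in 9 of the 10 genes and called 0, against 0.0383% of all genes. Of the 4 genes, 3 had a higher and 1 had a lower fitted level with VPA. Their median log2 fold change was 0.42, while that over all genes tested was −0.06 and 54.2% of these were lower. The median was 0.12 without VPA replicate 1. Without CTR replicate 2 it was 0.95, but over 5 genes, since *Cyp8b1* then also passed the filter, and this value is not comparable with 0.42. The 4 genes themselves were then at −1.38 (*Abcb4*), −0.08 (*Abcc2*), 0.95 (*Cyp27a1*) and 1.79 (*Slco1b2*). In none of the 4 were the CTR and VPA libraries separate, which was the case for 11.9% of all genes tested (4.44% with VPA above and 7.41% with VPA below CTR).

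**Figure D2:**
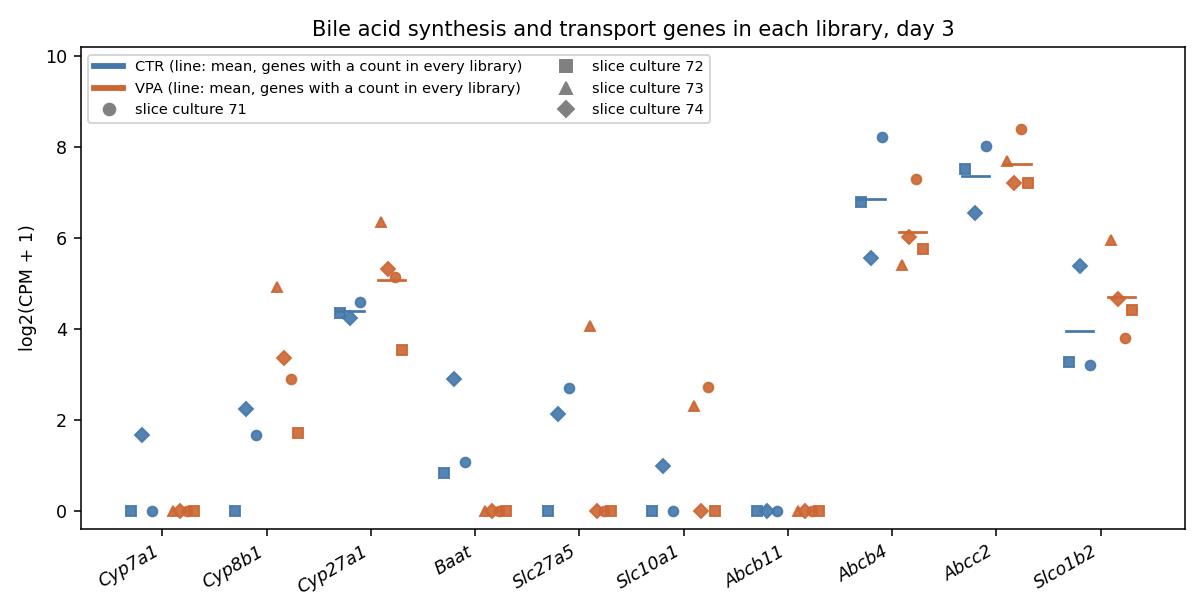
Each point is the level of 1 gene in 1 library, as log2(CPM + 1), with CTR in blue and VPA in orange and the symbol giving the slice culture number; lines are group means of these log2 values, drawn for the 4 genes with a count in every library. By group means *Abcc2* and *Abcb4* lie highest in both groups, while in VPA replicate 1 *Abcb4* lies below *Cyp27a1* and *Slco1b2*. *Abcb11* lies at 0 in all 7 libraries.

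The genes differed in level. *Abcc2* and *Abcb4* together made up between 56.6% (VPA replicate 1) and 93.3% (CTR replicate 3) of the summed CPM of the 10 genes. In the CTR libraries *Abcc2* was at 178 ± 82.9 CPM (SD, n = 3) and *Abcb4* at 151 ± 130 CPM, and these neighbours did not differ beyond their spread. They were followed by *Cyp27a1* at 20.1 ± 2.63 CPM and *Slco1b2* at 19.2 ± 18.6 CPM, again without a difference beyond the spread. The other 6 genes had at most 6.50 CPM in any CTR library. The summed level of all 10 genes was 214 to 595 CPM with CTR and 234 to 553 CPM with VPA, the latter range lying within the former.

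*Cyp7a1* (ENSMUSG00000028240, chromosome 4, 6265612 to 6275633, − strand), the cholesterol 7α-hydroxylase that limits the rate of the classic route, was counted in 1 library only. CTR replicate 2, the most deeply sequenced library, had 11 counts (2.17 CPM), and the other 2 CTR libraries and all 4 VPA libraries were listed at 0. Counts of this size cannot show a difference between the groups.

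*Cyp27a1* (ENSMUSG00000026170, chromosome 1, 74713574 to 74737892, + strand), the mitochondrial sterol 27-hydroxylase of the acidic route, was the best counted of the synthesis enzymes among the 10 genes. It had 19.3, 17.9 and 23.0 CPM in CTR replicates 1 to 3, and 81.0, 38.7, 34.5 and 10.6 CPM in VPA replicates 1 to 4. VPA replicates 1, 2 and 3 lay above all CTR libraries, whereas VPA replicate 4 lay below all of them. The fitted log2 fold change was 1.04 (standard error, SE, 0.594; 95% confidence interval, CI, −0.34 to 2.42; adjusted p in edgeR = 0.74), so the difference did not hold up against the spread. The means of 20.1 ± 2.63 CPM (SD, n = 3) and 41.2 ± 29.3 CPM (SD, n = 4) gave p = 0.314 in a two-sided exact permutation test, for which 0.0286 is the smallest p that 3 against 4 libraries allow. VPA replicate 1 carried much of it, since the log2 fold change was 0.49 without this library. It was 1.35 without VPA replicate 4, where the unadjusted p was 0.0125 and the adjusted p from edgeR was 0.299, and where 10.3% of all genes had an unadjusted p under 0.05.

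*Cyp8b1* (ENSMUSG00000050445, chromosome 9, 121914356 to 121916305, − strand), the sterol 12α-hydroxylase that sets the share of cholic acid, was too low for the test. It had 0, 19 and 4 counts in CTR replicates 1 to 3, and 45, 30, 8 and 3 counts in VPA replicates 1 to 4. These are 0, 3.75 and 2.19 CPM against 29.4, 9.22, 6.42 and 2.27 CPM. VPA replicates 1, 2 and 3 were above all CTR libraries and VPA replicate 4 was within their range (two-sided exact permutation test, p = 0.171). In DESeq2 the log2 fold change was 2.54 with an unadjusted p of 0.0418 and an adjusted p of 0.594, where 4.54% of all genes had an unadjusted p under 0.05. In edgeR without a filter it was 2.39 with an adjusted p of 0.68. For each of the slice culture numbers 71, 72 and 74 the VPA library was higher than the CTR library, by 1.26, 1.89 and 1.14 on the log2 CPM scale with a prior count of 2. For number 72 this compares 3 counts with a library listed at 0 and depends on the prior count.

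The enzymes of conjugation were barely counted. *Slc27a5* (ENSMUSG00000030382, chromosome 7, 12988346 to 12998192, − strand), the bile acyl-CoA synthetase that activates bile acids, had 0, 17 and 10 counts in CTR replicates 1 to 3 and 24 counts in VPA replicate 1, and it was listed at 0 in VPA replicates 2, 3 and 4. These are 3.35 and 5.48 CPM in CTR replicates 2 and 3 and 15.7 CPM in VPA replicate 1, so that the highest library and most of the zeros belonged to the same group. *Baat* (ENSMUSG00000039653, chromosome 4, 49489422 to 49506557, − strand), which joins the activated bile acid to taurine or glycine, was the only gene of the 10 whose groups were separate. It had 2, 33 and 2 counts in CTR replicates 1 to 3 (0.788, 6.50 and 1.10 CPM) and was listed at 0 throughout the VPA group. The exact permutation test, two-sided, gave p = 0.0286, again the smallest possible. A pattern of counts in all CTR and none in all VPA libraries was found for 299 of the 26086 genes with a count, which is 1.15%, and the opposite pattern for 4 genes, which is 0.0153%. The libraries of the VPA group were also those with more zeros among well counted genes, and in 2 of the 3 CTR libraries *Baat* had 2 counts, within the 3 that a count of 0 allows. In edgeR without a filter its unadjusted p was 0.0181 and its adjusted p was 0.68, where 6.41% of all genes had an unadjusted p under 0.05.

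Of the uptake carriers, *Slc10a1* (ENSMUSG00000021135, chromosome 12, 80953183 to 80968705, − strand), the sodium-dependent taurocholate transporter, was counted in 3 libraries. It had 5 counts in CTR replicate 2, 6 in VPA replicate 1 and 7 in VPA replicate 3, and was listed at 0 in the other 4. The largest of these values was 5.62 CPM, and no difference was detectable with these counts. *Slco1b2* (ENSMUSG00000030236, chromosome 6, 141629518 to 141686646, + strand), the sodium-independent carrier of bile acids, bilirubin and many drugs, was counted in all libraries. Its levels were 8.67, 40.6 and 8.22 CPM in CTR replicates 1 to 3, and 60.7, 24.3, 12.8 and 20.4 CPM in VPA replicates 1 to 4. CTR replicate 2 lay above VPA replicates 2, 3 and 4, while the other 2 CTR libraries lay below all VPA libraries. The log2 fold change was 0.61 (SE 0.753, 95% CI −1.15 to 2.36; adjusted p in edgeR = 0.937). Group means were 19.2 ± 18.6 and 29.6 ± 21.3 CPM (SD, n = 3 and 4). Its log2 fold change was 1.79 without CTR replicate 2, with an unadjusted p of 0.044 and an adjusted p of 0.662 from edgeR, in a fit where 7.44% of all genes had an unadjusted p under 0.05. Without VPA replicate 1 it was −0.01.

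The canalicular exporters included the genes of the 10 with the highest means in both groups, *Abcc2* and *Abcb4*, and 1 gene without a count. In the VPA group *Abcb4* at 79.2 ± 52.9 CPM and *Cyp27a1* at 41.2 ± 29.3 CPM (SD, n = 4) did not differ beyond their spread. In VPA replicate 1 *Abcb4* (41.8 CPM) lay below *Cyp27a1* (81.0 CPM) and *Slco1b2* (60.7 CPM). *Abcb11* (ENSMUSG00000027048, chromosome 2, 69238282 to 69342616, − strand), the bile salt export pump, was listed at 0 in all 7 libraries, where up to 3 counts each would be allowed by counting error, and no level is drawn from it. Its annotated end carries a polyadenylation signal, as printed above. The genes *Gm13613* and *Gm13614* overlap it on the other strand, and the use of strand in the counting is not given in the sources used here. Whether the signal or the overlap takes part in the zeros of *Abcb11* was not tested.

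*Abcb4* (ENSMUSG00000042476, chromosome 5, 8893717 to 8959231, + strand) moves phospholipid to the canalicular side of the membrane. It had 111, 46.1 and 297 CPM in CTR replicates 1 to 3, and 41.8, 64.0, 157 and 53.6 CPM in VPA replicates 1 to 4. VPA replicate 3 was the highest of its group and CTR replicate 3 the highest of the other, and both carry the slice culture number 71. The log2 fold change was −0.93 (SE 0.676, 95% CI −2.51 to 0.65; adjusted p in edgeR = 0.846). Group means were 151 ± 130 and 79.2 ± 52.9 CPM (SD, n = 3 and 4). CTR replicate 3 carried nearly all of the difference, since the log2 fold change was −0.01 without it. It was −1.50 without VPA replicate 3. The pseudogene *Gm17936*, which had no count, overlaps *Abcb4* on the same strand.

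*Abcc2* (ENSMUSG00000025194, chromosome 19, 43782192 to 43840740, + strand) exports conjugated bilirubin and glutathione conjugates. Its levels were 182, 93.0 and 259 CPM in CTR replicates 1 to 3, and 207, 149, 336 and 147 CPM in VPA replicates 1 to 4. The groups overlapped throughout, and the libraries with the slice culture number 71 were again the highest of each. The log2 fold change was 0.24 (SE 0.417, 95% CI −0.73 to 1.21; adjusted p in edgeR = 0.953). Group means were 178 ± 82.9 and 210 ± 88.9 CPM (SD, n = 3 and 4). Its log2 fold change fell to −0.08 without CTR replicate 2 and to −0.09 without VPA replicate 3, so that its direction rested on single libraries.

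Libraries with the same slice culture number were set side by side, although the labels do not say what the number stands for. *Abcb4* was lower with VPA in cultures 71 and 72 (differences of −0.91 and −1.03 on the log2 CPM scale) and higher in culture 74 (0.46). *Abcc2* was higher with VPA in cultures 71 and 74 (0.38 and 0.67) and lower in culture 72 (−0.30). *Cyp27a1* showed the same pattern, with differences of 0.57 and 1.08 in cultures 71 and 74 and −0.82 in culture 72. *Slco1b2* was higher in cultures 71 and 72 (0.59 and 1.16) and lower in culture 74 (−0.72). None of the 4 genes thus differed in the same direction for all 3 numbers.

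**Figure D3:**
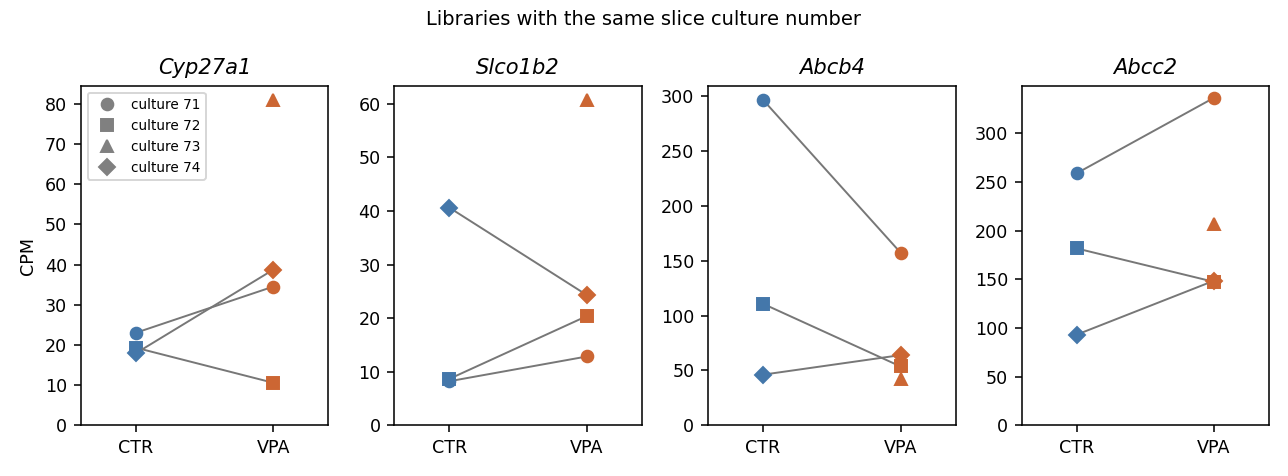
The panels show the CPM of *Cyp27a1*, *Slco1b2*, *Abcb4* and *Abcc2* on linear axes that start at 0, with 1 point per library and lines joining the CTR and VPA libraries of the same slice culture number; culture 73 has a VPA library only. In each panel the lines run in both directions.

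The single libraries differed in which genes they favoured. VPA replicate 1 was the highest of all 7 libraries for 4 of the 10 genes, *Cyp8b1*, *Cyp27a1*, *Slc27a5* and *Slco1b2*. CTR replicate 3 was the highest for *Abcb4*, VPA replicate 3 for *Abcc2* and *Slc10a1*, and CTR replicate 2 for *Cyp7a1* and *Baat*.

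The wider pathway was described with 46 further genes in 5 lists, of which 24 were tested. None passed an adjusted p of 0.05 in edgeR or in DESeq2, 1 had an unadjusted edgeR p under 0.05, where the share over all genes tested was 8.28%, and 11 were higher and 13 lower with VPA, where 54.2% of all genes tested were lower. Apart from *Rxra*, the genes named from these lists were chosen after their values were seen. A count was missing in all libraries for 12 of the 46.

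Of the 15 other synthesis genes, 7 were tested, 3 being higher and 4 lower, with a median log2 fold change of −0.30. *Cyp39a1*, an oxysterol 7α-hydroxylase, was the gene with an unadjusted p under 0.05. It had 4.33, 2.56 and 5.48 CPM in CTR replicates 1 to 3 and 13.7, 11.4, 23.3 and 5.29 CPM in VPA replicates 1 to 4. VPA replicate 4 lay within the CTR range. The log2 fold change was 1.70 (SE 0.705; p in edgeR 0.0438 unadjusted and 0.575 adjusted). *Hsd17b4*, the peroxisomal enzyme that shortens the side chain together with *Scp2*, had a log2 fold change of 0.85 (adjusted p = 0.684 from edgeR). The lower genes had wider errors, with log2 fold changes of −2.17 for *Acox2* (SE 1.64), −2.14 for *Cyp2c70* (SE 1.69) and −1.17 for *Slc27a2* (SE 2.03), against −0.30 for *Abcd3* (SE 0.347). *Cyp7b1*, the oxysterol 7α-hydroxylase that follows *Cyp27a1*, had 2.76, 2.17 and 3.84 CPM in the CTR libraries and was listed at 0 in all 4 VPA libraries, the same pattern as *Baat*.

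Among transporters outside the 10 genes, the 2 tested uptake carriers were higher with VPA, *Slco2b1* by 1.31 and *Slco1a1* by 0.88 on the log2 scale, and neither passed the test (adjusted p = 0.823 and 0.904 from edgeR). Of the 5 tested canalicular genes, 4 were higher and 1 lower, with a median of 0.31. The lowest p among these was that of *Tmem30a*, which encodes the partner subunit of the flippase *Atp8b1*, with a log2 fold change of 0.43 (SE 0.188; adjusted p in edgeR = 0.608). Of the basolateral efflux genes 2 were tested and both were lower. *Abcc3*, which returns bile acids and conjugates to blood, had 24.0, 10.8 and 40.0 CPM in CTR replicates 1 to 3 and 14.5 CPM in VPA replicate 3, and was listed at 0 in the other 3 VPA libraries. Its log2 fold change of −2.85 had an SE of 1.67 and an adjusted p of 0.751 in edgeR.

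Of the 13 regulators, 8 were tested, with 2 higher and 6 lower and a median log2 fold change of −0.36. *Rxra*, the partner of the bile acid receptor on DNA, was the one gene that the rule for named genes picked from the 5 lists. It had 62.3, 65.0 and 71.3 CPM in CTR replicates 1 to 3 and 49.0, 49.5, 57.8 and 61.2 CPM in VPA replicates 1 to 4. All VPA libraries were below all CTR libraries, a pattern found in 7.41% of all genes tested. The log2 fold change was −0.29 (SE 0.173; adjusted p in edgeR = 0.76). *Nr1h4*, the bile acid receptor FXR, was counted in CTR replicates 1 and 3 and VPA replicate 3 alone, with 28, 29 and 22 counts, and its log2 fold change of −1.05 had an SE of 2.16. *Nr0b2*, its target that represses *Cyp7a1*, had 4.73, 3.35 and 6.58 CPM in CTR replicates 1 to 3 and 3.21 CPM in VPA replicate 3, and was listed at 0 in the other 3 VPA libraries, so that its groups were separate with VPA the lower, and it was not tested. *Klb*, the co-receptor through which hepatocytes sense FGF15, was not tested either. It had 0.788, 1.38 and 1.64 CPM in CTR replicates 1 to 3 and 3.26, 2.77, 5.62 and 2.27 CPM in VPA replicates 1 to 4, all VPA libraries lying above all CTR libraries, on 2 to 9 counts a library. Among the genes tested 4.44% showed this pattern and 7.41% that of *Nr0b2*. *Klb* and *Nr0b2* were not among these, and no share was computed for genes with counts as low as theirs. *Hnf4a*, a regulator of hepatocyte genes, had a log2 fold change of 0.27 (adjusted p = 0.961 from edgeR).

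**Figure D4:**
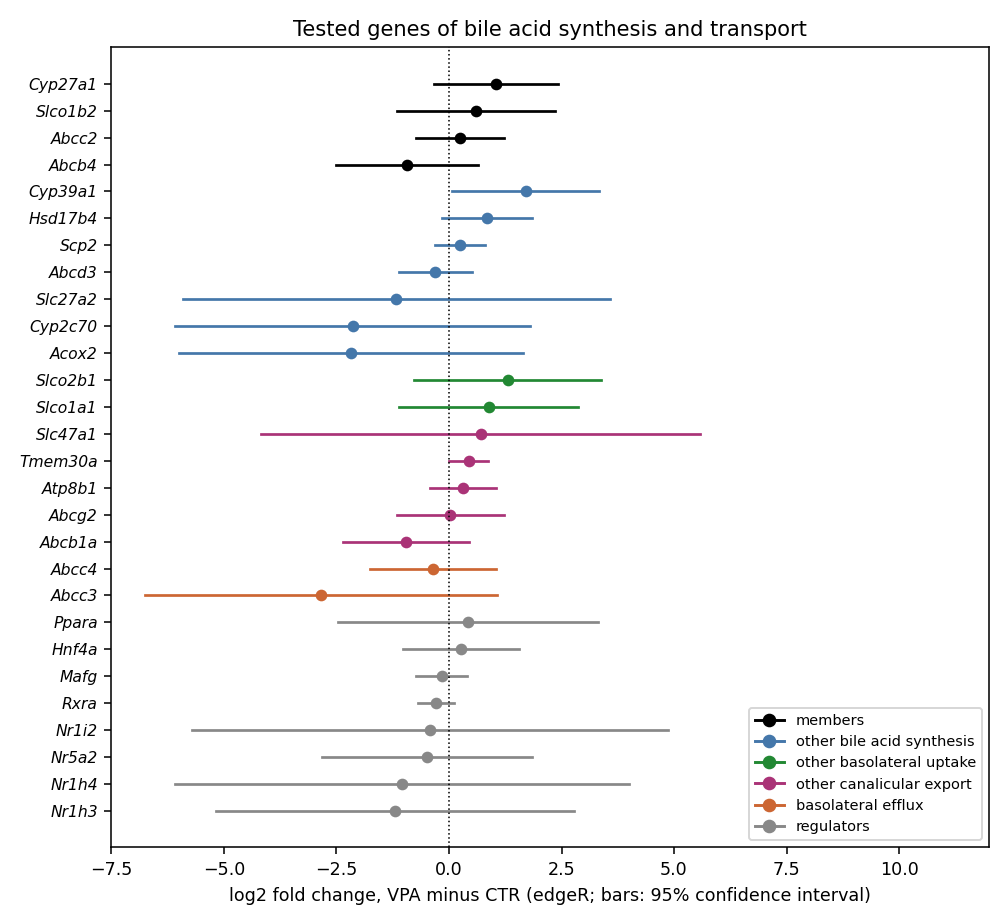
Points are the log2 fold changes (VPA minus CTR) of the 28 tested genes from edgeR, bars are 95% confidence intervals and colours give the list, with the 4 tested members in black. The intervals cross 0 except that of *Cyp39a1*, whose adjusted p was 0.575.

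Markers of the cell types of a slice were read in the same libraries. Of 16 hepatocyte markers, 15 had a count, and their summed level was 8595 to 22059 CPM in the CTR and 5481 to 18463 CPM in the VPA libraries, led by *Trf*, while *Ass1*, an enzyme of the urea cycle, was listed at 0 in all 7. Tested were 13 hepatocyte markers, 8 being higher and 5 lower (median log2 fold change 0.05). All 8 cholangiocyte markers had a count, with *Sox9* the highest. Of these 3 were tested, 2 being higher and 1 lower, and the sums overlapped at 101 to 136 CPM and 119 to 170 CPM. The defining marker *Krt19* was listed at 0 in all CTR libraries and in VPA replicates 1 and 3, while *Cftr* was listed at 0 in all VPA libraries. The 8 stellate cell markers summed to 776 to 1385 CPM with CTR and 453 to 595 CPM with VPA, without overlap. All 8 were tested, 7 being lower and 1 higher (median log2 fold change −0.77). Over all genes tested 54.2% were lower. The groups were separate for 1 of the 8, against 11.9% of all genes tested, and this was *Col1a1*, a fibrillar collagen gene and the highest of the list. *Col1a1* had 949, 515 and 704 CPM in CTR replicates 1 to 3 and 238, 172, 244 and 261 CPM in VPA replicates 1 to 4. Its adjusted p was 0.112 from edgeR, and 0.0229 from edgeR without the filter, which called 0.0383% of all genes. *Col1a1* was the 1 marker of the list that DESeq2 called, as it did 1.04% of all genes. Without it, a choice made after the values were seen, the sums overlapped at 261 to 473 CPM and 277 to 334 CPM. The 7 endothelial markers summed to 252 to 281 CPM and 69.2 to 243 CPM, also without overlap. Of these 6 were tested, 5 being lower and 1 higher (median log2 fold change −1.0). The groups were separate, with VPA the lower, for *Cdh5* and *Stab1*, as for 7.41% of all genes tested, each listed at 0 in 2 VPA libraries, and the groups overlapped for *Kdr*, the highest of the list. Without *Cdh5*, again chosen after the values were seen, the sums were 187 to 201 CPM and 51.4 to 243 CPM, and VPA replicate 2 alone of the VPA libraries was not below the CTR range. The 8 macrophage markers, led by *Cd68*, overlapped at 222 to 310 CPM and 202 to 461 CPM, with *Adgre1* and *Marco* listed at 0 in all 7 libraries. Tested were 5 macrophage markers, 4 being higher and 1 lower (median log2 fold change 0.37). The part of *Col1a1* and of the other marker levels in the values of the 10 genes was not tested.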

How the data were processed

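The authors prepared 3′ end libraries (QuantSeq FWD), trimmed the single-end reads, aligned these with STAR (GRCm38) and assembled genes with StringTie. They deposited raw counts per Ensembl gene, 1 column per library. Which program counted the reads, whether strand was used and how multi-mapping reads were treated is not given in the sources used here. Symbols and coordinates came from GENCODE M21 (GRCm38), which named 55227 of 55487 genes.

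The main test was that of edgeR 4.0.16 in R 4.3.3 (TMM, filterByExpr, robust quasi-likelihood fit, condition as the only term, Benjamini-Hochberg over 10876 genes), with DESeq2 1.42.0, which the study names, and limma 3.58.1 (voom) as alternatives. The code was tested on simulated data. Values of single genes were compared by exact permutation (two-sided), with all 35 splits into 3 and 4 libraries. Replicate libraries differed by more than counting noise (chi-square per degree of freedom 13.0 to 24.3). The study defines a biological repeat as a different liver, but the labels do not tie libraries to animals, and otherwise p-values measure the spread between these libraries.

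The members and lists were chosen with earlier results of these data known. All 10 members were named. From the 5 pathway lists, genes with an adjusted p under 0.05 were named, and up to 8 with separate groups and at least 5 CPM on average in the higher group, which gave *Rxra*. From each marker list the gene with the highest level was named. Alternatives were other tests, normalizations, filters, dispersion settings, prior counts, blocks by slice culture or replicate number, and leaving out each library.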

Additional observations from a re-analysis of the deposited data

Results flagged for a closer look

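In a group of 4 libraries, a single library far from the other 3 was looked for in 23 measures, and 2 were found, where about 1 in 20 (a share of 0.05) is found by chance. *Slc27a5* had 15.7 CPM in VPA replicate 1 and was listed at 0 in VPA replicates 2, 3 and 4. Where 3 libraries are at 0 and 1 is not, that library is always found, so the share of 0.05 does not apply to such a measure. The gene counts of VPA replicate 2 summed to 3102450, and those of VPA replicates 1, 3 and 4 to between 1400887 and 1515954.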

How the results depend on the processing

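No member had an adjusted p under 0.05 in any of the 16 alternatives, and for the 4 tested genes the lowest adjusted p over these was 0.299 for *Cyp27a1*, 0.554 for *Abcc2*, 0.558 for *Abcb4* and 0.662 for *Slco1b2*. *Cyp27a1* and *Abcb4* kept their direction throughout. *Abcc2* turned to −0.082 without CTR replicate 2 and −0.086 without VPA replicate 3, and *Slco1b2* to −0.0087 without VPA replicate 1. Fits on fewer libraries gave log2 fold changes of 0.49 to 1.35 for *Cyp27a1*, −1.50 to −0.01 for *Abcb4*, −0.09 to 0.58 for *Abcc2* and −0.01 to 1.79 for *Slco1b2*. In these fits, which took in 4 or 5 members, the count of members lower with VPA was 1 to 2, and that with an unadjusted p under 0.05 was 0 to 1. The median log2 fold change was 0.12 over 4 members (without VPA replicate 1) to 0.95 over 5 members (without CTR replicate 2), so that these medians are over different genes. The count of all genes with an adjusted p under 0.05 was 0 to 2.

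An unadjusted p under 0.05 was reached by 1 member in DESeq2 (*Cyp8b1*, 0.0418), by 1 without a filter (*Baat*, 0.0181) and by 1 with the replicate block by replicate number (*Cyp27a1*, 0.0347), where 4.54%, 6.41% and 9.05% of all genes reached it. DESeq2 and edgeR without a filter each took in 9 members, with 3 lower in both. Over all genes the count with an adjusted p under 0.05 was 155 in DESeq2 (40 higher, 115 lower), 10 without a filter (2 higher, 8 lower), 36 of 6652 genes when every library had to reach 10 counts (17 higher, 19 lower) and 0 with either replicate block, against 1 in the reported fit, and the cause was not tested. Same-numbered libraries were treated as sharing only a number. The correlation of their deviations from the group means was 0.107 in slice culture 71, 0.0256 in 72 and 0.0546 in 74, and −0.0539 for libraries with replicate number 1. With the block by slice culture the log2 fold changes were 0.32 for *Cyp27a1*, −0.50 for *Abcb4*, 0.26 for *Abcc2* and 0.34 for *Slco1b2*. With a prior count of 0.5 in place of 2, the difference in mean log2 CPM of *Baat*, *Cyp7a1* and *Slc27a5* moved by over 1.5 times, and for *Baat* and *Cyp7a1*, listed at 0 in all VPA libraries, no size is given. For *Slc27a5* the direction depended on the measure, the difference being −0.67 and −1.39 with the prior counts of 2 and 0.5, and the fitted log2 fold change 0.39 in DESeq2 and 0.26 in edgeR without a filter. *Cyp7a1*, *Cyp8b1*, *Baat*, *Slc27a5* and *Slc10a1* had 11 to 109 counts in all, which limits the precision of their values.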

Other observations

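The ratio of 2 genes within a library does not depend on the normalization, and it was computed for the 6 pairs of the 4 genes with a count in every library, a choice made after the values were seen. The ratio of *Abcb4* to *Abcc2* counts was 0.610, 0.496 and 1.15 in CTR replicates 1 to 3 and 0.202, 0.431, 0.468 and 0.364 in VPA replicates 1 to 4. It was lower in all 4 VPA libraries than in all 3 CTR libraries, by −1.01 on the log2 scale (mean log2 ratio −0.51 ± 0.63, SD, n = 3, and −1.52 ± 0.547, n = 4). The highest ratio was that of CTR replicate 3, the library that carried nearly all of the difference in *Abcb4*, and the size without it was not computed. The two-sided exact permutation test gave p = 0.0286, the smallest possible, and 0.171 adjusted over the 6 ratios, so that the difference did not pass the correction. In the other 5 ratios the groups overlapped, with exact permutation p from 0.257 to 0.914.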
